A study of Caenorhabditis elegans with 8 samples.

Results

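The muscle filament genes examined here were the 10 Caenorhabditis elegans genes unc-54, myo-1, myo-2, myo-3, unc-15, lev-11, act-1, act-2, act-3 and act-4, chosen by name, and the peaks assigned to them were the rows of 2 DAF-16 peak lists that carry their symbols. They are 10 of 46926 genes in the RefSeq gene table used for names, and they held 7 of 5396 peaks in WT and 10 of 6859 peaks in daf-2(-). DAF-16, the worm's FOXO transcription factor, was mapped by chromatin immunoprecipitation and sequencing (ChIP-seq) with a polyclonal rabbit antibody against the endogenous protein in whole, mixed-stage worms grown at 20 °C. The strains were WT (N2), daf-2(-) with the e1370 allele in the gene for the insulin receptor homologue, daf-16(-) with the mgDf50 allele, and daf-16(-);daf-2(-) with both alleles, each with 1 ChIP and 1 input library. The deposited lists are those of WT and daf-2(-), and the DAF-16-null strains enter only through peaks that, as the study describes its datasets, were left out because a null strain had one at the same place. The labels name no transgene in any strain.

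When insulin signalling is low, DAF-16 is less restrained in the cytoplasm and more of it enters the nucleus, where it regulates genes of stress resistance, metabolism and lifespan. Muscle contracts by the sliding of thick filaments, built from myosin heavy chains on a core of paramyosin, along thin filaments of actin carrying tropomyosin and troponin. In C. elegans the body wall muscles use the myosin heavy chains UNC-54 and MYO-3, and the pharynx, the feeding organ, uses MYO-1 and MYO-2. Whole worms hold intestine, neurons, hypodermis and germline as well as muscle, so a peak present in few nuclei with strong recruitment and one present in many nuclei with weak recruitment cannot be told apart.

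Peaks lay at the body wall myosin gene unc-54, the paramyosin gene unc-15, the tropomyosin gene lev-11 and the actin genes act-3 and act-4 in both strains. The second body wall myosin gene, myo-3, had a peak in daf-2(-) and none in WT. No peak was assigned to either pharyngeal myosin gene, myo-1 or myo-2, nor to act-1 or act-2, in either list. Thus 5 of 10 members had a peak in WT and 6 of 10 in daf-2(-), beside 15.0% and 18.0% of all 19983 protein-coding genes (9.79% and 11.8% of all RefSeq genes). A peak in both lists was found for 5 of 10 members and for 13.0% of protein-coding genes, a peak in daf-2(-) only for 1 member and 5.01% of genes, and a peak in neither for 4 members and 80.0% of genes. No member had a peak in WT only, a pattern seen in 1.99% of genes. These counts describe genes that were picked by name, and no test was attached to them because each strain had a single ChIP library.

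**Figure D1:**
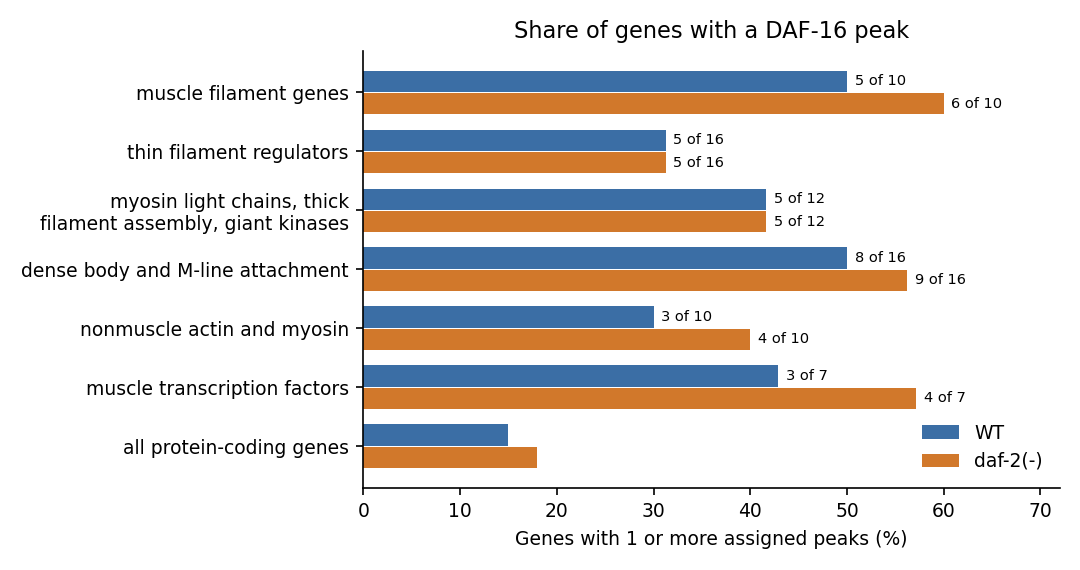
Share of genes with at least 1 assigned DAF-16 peak (x axis, percent) in WT (blue) and daf-2(-) (orange), for the muscle filament genes, 5 lists of other muscle or actomyosin genes, and all protein-coding genes of the RefSeq table. Bars start at 0, and the numbers beside them are genes with a peak of genes in the list; the muscle filament genes stand at 5 of 10 and 6 of 10, against 15.0% and 18.0% of protein-coding genes.

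Each deposited peak has a count of tags (aligned reads) inside it, a summit height, which is the number of tags piled up at its highest point, and a fold enrichment, which is that height over the local background estimated by MACS. The tags inside all peaks summed to 1315194 in WT and 1051563 in daf-2(-), and the median summit height was 90 in WT and 56 in daf-2(-). Because the lists were made separately, heights were also read as percentiles within their own list. Intervals on tags and heights are exact Poisson 95% intervals and cover counting error only.

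The unc-54 gene (WBGene00006789), which encodes the major myosin heavy chain of body wall muscle, held the tallest member peak of the WT list. That peak lay on chromosome I from 14864543 to 14866081 (coordinates are WS230 throughout), 1539 bp long, with its summit 1490 bp upstream of the transcription start site (TSS) of model F11C3.3.2 at 14863540, on the minus strand. In WT it had a summit height of 138 (interval 116 to 163, percentile 78.4), 320 tags (286 to 357) and a fold enrichment of 16.61. In daf-2(-) the peak ran from 14864616 to 14866012 with a height of 85 (67.9 to 105, percentile 74.8), 181 tags (156 to 209) and a fold enrichment of 10.59, and its summit was 14 bp from that of WT. Thus unc-54 had the same upstream site in both strains, in the upper part of each list.

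A second, smaller unc-54 peak covered the TSS itself. It spanned 14863356 to 14864027 in WT, with a height of 62 (47.5 to 79.5), 101 tags and a summit 41 bp upstream of the TSS. In daf-2(-) it spanned 14863343 to 14864052, with a height of 51 (38.0 to 67.1), 79 tags and a summit 75 bp upstream. This promoter peak stood at percentile 17.8 in WT and 43.9 in daf-2(-), below the median height of its list in both. Beyond both peaks, the next site upstream was assigned to the neighbouring gene F11C3.1, with heights of 171 in WT and 101 in daf-2(-).

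The myo-3 gene (WBGene00003515) encodes the other body wall myosin heavy chain, which occupies the centre of the thick filament, and it was the only member with a peak in 1 list alone. The WT list had no peak assigned to it. The daf-2(-) list had a peak on chromosome V from 12234328 to 12236128, 1801 bp long, which began 15 bp inside the gene model K12F2.1 and extended upstream of its TSS at 12234343. Its height was 117 (96.8 to 140, percentile 87.2), its tags 311 (277 to 348) and its fold enrichment 15.38, with a false discovery rate (FDR) of 0%. The summit lay 1310 bp upstream of the TSS. No WT peak overlapped it, and the nearest WT peak was 259 bp away.

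That neighbouring site lay inside the myo-3 gene model, was assigned to the short noncoding gene K12F2.3, and was present in both strains. Its height was 107 in WT (12233246 to 12234068, 176 tags) and 50 in daf-2(-) (12233207 to 12234050, 101 tags), with the WT summit 766 bp and the daf-2(-) summit 740 bp downstream of the myo-3 TSS. The site within the gene was taller in WT, as 93.4% of the sites shared by the lists were, whereas the upstream site was listed only in daf-2(-). Among the 2015 daf-2(-) peaks with no overlapping WT peak, whose median height was 42, the myo-3 peak ranked 74 by height. Of 912 daf-2(-) peaks at or above a fold enrichment of 15, 78 (8.55%) lacked a WT partner. Members held 2 of the 78, the myo-3 peak and a peak over the act-4 gene body. The myo-3 peak, at 15.38, passed this limit only narrowly. How often other genes held such a peak was not computed, so the count of 2 has no background.

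The unc-15 gene (WBGene00006754), which encodes paramyosin, the core protein of the invertebrate thick filament, showed 2 sites, at its upstream start and between its starts. The site between the starts lay on chromosome I from 7380671 to 7381553 in WT, with a height of 78 (61.7 to 97.3, percentile 37.4) and 129 tags (108 to 153). In daf-2(-) it ran from 7380760 to 7381534 with a height of 49 (36.3 to 64.8, percentile 40.8) and 84 tags (67.0 to 104.0). It was assigned to the short model F07A5.7b.2, whose TSS at 7379486 lay 1663 bp (WT) and 1639 bp (daf-2(-)) downstream of the summits, and it lay inside the long model F07A5.7a.2. At the TSS of that long model, 7383197, the daf-2(-) list had a second unc-15 peak from 7382809 to 7383872, with a height of 44 (32.0 to 59.1), 137 tags (115 to 162) and a summit 11 bp upstream.

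The WT list had no peak under the unc-15 symbol at this long-model TSS, but it was not empty there. A WT peak from 7382829 to 7384817, 1989 bp long, was assigned to the neighbouring gene C15A11.2 and had its summit 58 bp upstream of the unc-15 TSS, with a height of 70 and 304 tags. Its summit was 47 bp from that of the daf-2(-) unc-15 peak. In daf-2(-) the same stretch was divided into the unc-15 peak and a lower C15A11.2 peak from 7384054 to 7384798, with a height of 31 and 63 tags. By symbol unc-15 had 1 peak in WT and 2 in daf-2(-), and by position both lists had a summit at each of the 2 sites.

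The tropomyosin gene lev-11 (WBGene00002978), whose product lies along the actin filament, had a single, low peak in both strains. On chromosome I it spanned 14625003 to 14626288 in WT, with a height of 66 (51.0 to 84.0, percentile 23.2), 189 tags (163 to 218) and a fold enrichment of 7.02. In daf-2(-) it spanned 14625041 to 14626253, with a height of 38 (26.9 to 52.2, percentile 18.5), 122 tags (101 to 146) and a fold enrichment of 5.21. The peak covered the TSS of model Y105E8B.1e.2 at 14625437, with summits 419 bp and 391 bp upstream of it. This was the lowest height of any member peak in daf-2(-). A taller site further upstream was assigned to the noncoding gene Y105E8B.14, with heights of 96 in WT and 74 in daf-2(-).

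The act-4 gene (WBGene00000066), the actin gene on chromosome X, had a WT peak from 4958637 to 4960052, with a height of 104 (85.0 to 126, percentile 61.2), 257 tags (227 to 290) and a fold enrichment of 11.26. Its summit was 958 bp upstream of the TSS of model M03F4.2a at 4960553. In daf-2(-) this site was divided, and the part assigned to act-4, from 4959432 to 4960060, had a height of 67 (51.9 to 85.1, percentile 62.7) and 91 tags. The other part, from 4958709 to 4959420, was assigned to M03F4.4 with a height of 51 and 88 tags. The upstream act-4 site was thus listed in both strains, at nearly equal percentiles.

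The daf-2(-) list held a second act-4 peak that had no counterpart in WT. It ran from 4960105 to 4962991, 2887 bp, starting 448 bp upstream of the M03F4.2a TSS and ending 2438 bp downstream of it, so that it covered much of the gene body. Its height was 133 (111 to 158, percentile 90.3), its tags 521 (477 to 568), its fold enrichment 18.24 and its FDR 0%. It was assigned to the internal start of model M03F4.2c at 4961927, with its summit 514 bp downstream of that start. By length it stood at percentile 99.0 of the daf-2(-) list, it was the member peak with the most tags in either strain, and it ranked 61 by height among the daf-2(-) peaks without a WT partner. The WT act-4 peak ended 52 bp before it began.

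**Figure D2:**
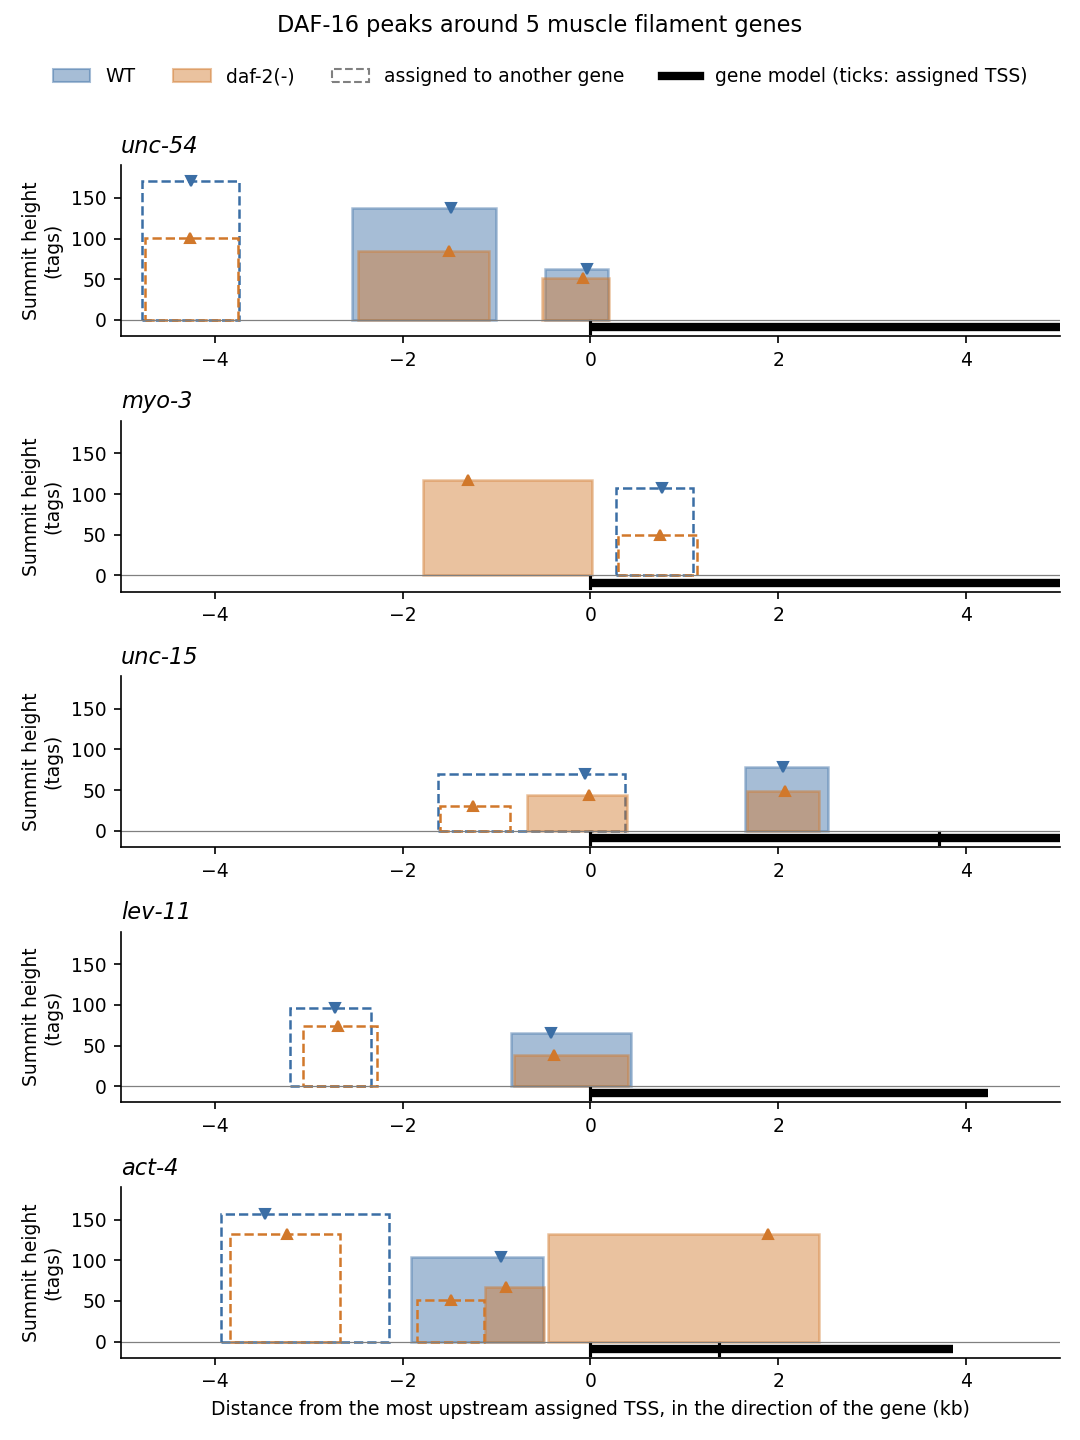
Peaks around unc-54, myo-3, unc-15, lev-11 and act-4 in WT (blue) and daf-2(-) (orange), drawn as boxes from peak start to end (x axis, kb from the most upstream assigned TSS, in the direction of the gene) with the summit height as box height (y axis, tags) and a triangle at the summit. Filled boxes are assigned to the gene and dashed boxes to another gene, and the black bar is the gene model; the filled orange boxes without a blue box under them are the daf-2(-) peaks of myo-3 (height 117) and of the act-4 gene body (height 133), whereas the unc-15 promoter box of daf-2(-) lies over a dashed WT box of height 70.

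The act-3 gene (WBGene00000065), 1 of 3 nearly identical actin genes clustered on chromosome V, had 2 peaks in each strain. The peak at the TSS of model T04C12.4.2 (11074498) spanned 11074342 to 11074952 in WT, with a height of 84 (67.0 to 104, percentile 44.2) and 131 tags. In daf-2(-) it spanned 11074253 to 11074952, with a height of 48 (35.4 to 63.6, percentile 39.0) and 80 tags, and the summits of the strains were 3 bp apart. The other peak lay inside that model and upstream of the internal start of T04C12.4.3 (11073269). It spanned 11073256 to 11074023 in WT with a height of 73 (57.2 to 91.8) and 138 tags, and 11073095 to 11073998 in daf-2(-) with a height of 60 (45.8 to 77.2) and 118 tags.

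The other cluster members, act-1 and act-2, were assigned no peak, yet the peaks did not stop at act-3. In the gene order of the RefSeq table, the nearest peaks on either side of act-2 were assigned to T04C12.15 (WT) or T04C12.14 (daf-2(-)) and to T04C12.24, and those on either side of act-1 to T04C12.16 (WT) or T04C12.25 (daf-2(-)) and to T04C12.29. From 11073095 to 11084427, a region of 11.3 kb chosen after the values were seen, each list had 7 peaks, and all 7 overlapped between the strains with summits 3 to 81 bp apart. The WT heights ran from 72 to 228 and those of daf-2(-) from 40 to 146, and the tags summed to 1493 and 786. The tallest, assigned to T04C12.29, had a fold enrichment of 29.16 in WT and 20.03 in daf-2(-) and stood at percentiles 94.9 and 92.1.

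In the study's methods only reads aligning to a single place were kept, and the share of reads lost for that reason over the near-identical actin coding sequences was not tested.

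**Figure D3:**
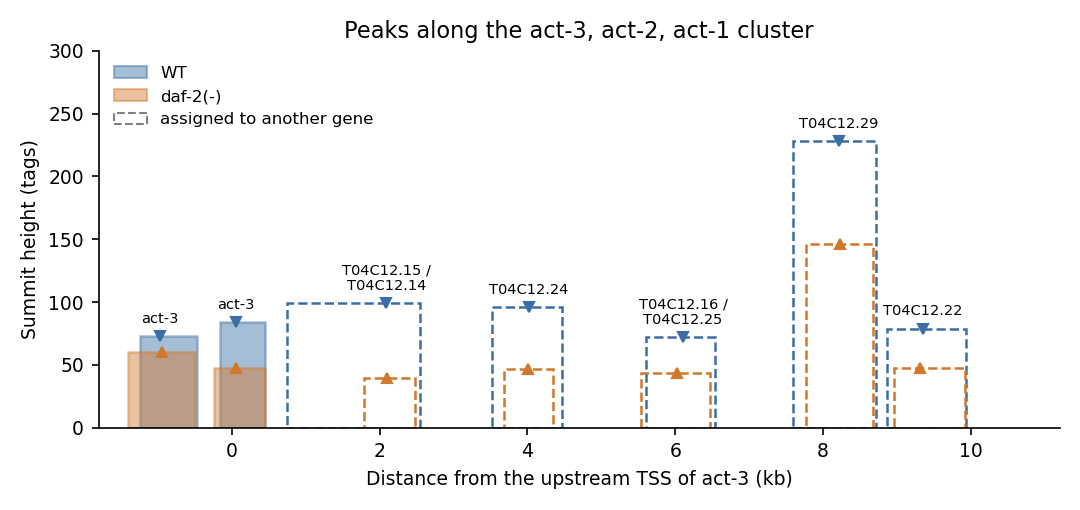
Peaks along the actin gene cluster of chromosome V in WT (blue) and daf-2(-) (orange), as boxes from peak start to end (x axis, kb from the upstream TSS of act-3) with the summit height as box height (y axis, tags) and triangles at the summits. Filled boxes are assigned to act-3 and dashed boxes to the noncoding or neighbouring gene named above them (WT name first where the strains differ); 7 WT peaks are each matched by a daf-2(-) peak, all lower in daf-2(-), with the tallest at T04C12.29 (228 and 146).

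Placed by the gene order of the RefSeq table, without coordinates, the pharyngeal myosin genes fell in stretches without peaks. Whether a peak assigned to a flanking gene reached into either of them was not measured. The myo-1 gene was in a peak-free stretch of 69.4 kb in WT, between a peak of nhr-23 and a peak of 21ur-14201, and of 53.7 kb in daf-2(-), between C01H6.9 and 21ur-14201. Both stretches stood at percentile 95.2 of the distances between neighbouring peaks, with medians of 7558.5 bp (WT) and 5741 bp (daf-2(-)). Each distance counts once in this rank, whereas a long stretch holds more genes than a short one. The rank therefore does not give the share of genes that lie in such a stretch, which was not computed. The myo-2 gene lay in a stretch of 12.3 kb in either list, from cdf-2 to atf-6 in WT and from cdf-2 to F45E6.1 in daf-2(-), at percentiles 61.7 and 67.7. Thus myo-1 was 11 or more genes from the nearest gene with a listed peak in both strains, while myo-2 was 2 genes away in WT and 1 gene away in daf-2(-). The absence of a row says that no peak passed the authors' threshold and filter there, not that DAF-16 was absent.

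Across members, the peaks were of ordinary strength for their lists. The median height of the 7 WT member peaks was 78 (range 62 to 138, median percentile 37.4), and 2 of 7 exceeded the WT list median of 90. The median of the 10 daf-2(-) member peaks was 55.5 (range 38 to 133, median percentile 49.7), and 5 of 10 exceeded the list median of 56. The WT fold enrichments ran from 6.69 to 16.61 and those of daf-2(-) from 5.21 to 18.24. The background set against the summit, computed as height over the rounded fold enrichment, was within 0.03 tags of the lowest value of its list for 1 of 7 WT member peaks and 6 of 10 daf-2(-) member peaks, as for 33.7% and 43.8% of all peaks, and its part in these fold enrichments was not tested. At a fold enrichment of 10 or more, 2 members kept a peak in WT (unc-54 and act-4, beside 9.15% of protein-coding genes) and 3 in daf-2(-) (unc-54, myo-3 and act-4, beside 6.42%).

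Every member peak was centred upstream of the start to which it was assigned, 7 of 7 in WT and 10 of 10 in daf-2(-), where 65.3% of all WT peaks and 67.2% of all daf-2(-) peaks were. By the gene models named in the lists, some of these starts were internal for unc-15, act-3 and act-4. There the peak lay within a longer model of the same gene or, at act-4, overlapped its beginning. Models of lev-11 other than Y105E8B.1e.2 were not examined. More than 1 peak was held by unc-54 and act-3 in WT, 2 of the 5 members with a peak, and by unc-54, unc-15, act-3 and act-4 in daf-2(-), 4 of 6. These counts go by symbol, and by position unc-15 had 2 sites in WT as well, 1 of them assigned to C15A11.2. Of protein-coding genes with a peak, 14.1% in WT and 17.8% in daf-2(-) had 2 or more.

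The sites listed in WT were found again in daf-2(-). All 7 WT member peaks overlapped a daf-2(-) peak by 1 bp or more (87.4% of the WT list did), and 8 of 10 daf-2(-) member peaks overlapped a WT peak (70.6% of the daf-2(-) list did), the exceptions being myo-3 and the act-4 gene body peak. Paired by nearest summit, the 8 shared sites had summits 3 to 57 bp apart, all within 100 bp, as were 86.7% of the 4717 shared pairs in the lists.

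At each of the 8 shared sites the summit was lower in daf-2(-) than in WT, the direction of 93.4% of all shared pairs. The log2 ratio of height, daf-2(-) over WT, had a median of −0.67 over the 8 sites and −0.53 over all 4717 pairs (quartiles −0.77 and −0.29). It was lowest at the act-3 promoter, −0.81 (exact conditional 95% counting interval −1.35 to −0.28), and at lev-11, −0.80 (−1.41 to −0.20). The upstream unc-54 site had −0.70 (−1.11 to −0.30), the inner unc-15 site −0.67 (−1.22 to −0.14), the unc-15 promoter site −0.67 (−1.25 to −0.11) and the act-4 upstream site −0.63 (−1.10 to −0.18). The intervals of the unc-54 promoter, −0.28 (−0.85 to 0.28), and the inner act-3 site, −0.28 (−0.80 to 0.23), included 0.

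Of the 8 height ratios, 6 lay outside counting error of equality, but all 8 intervals included the list-wide median of −0.53, so by height no shared muscle filament site was separated from the general shift between the lists. By tags per peak the unc-15 promoter site had −1.15 (−1.45 to −0.85) and the act-4 upstream site −1.50 (−1.86 to −1.15), below the median of −0.56 over all pairs, and at both the single WT peak overlapped 2 shorter daf-2(-) peaks. By fold enrichment, which divides by each strain's own background, the median log2 ratio was −0.36 at the 8 sites and −0.39 over all pairs, and the unc-54 promoter was at 0.03. Heights and tags are as deposited, without scaling for depth, and the mapping summary of the study lists more aligned ChIP reads for daf-2(-) than for WT. The part of depth in these ratios was not tested. Efficiency of the immunoprecipitation and recruitment cannot be told apart in these ratios. The myo-3 and act-4 gene body peaks have no WT height to compare, and whether a WT peak there had been left out for overlapping one of daf-16(-) was not tested.

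**Figure D4:**
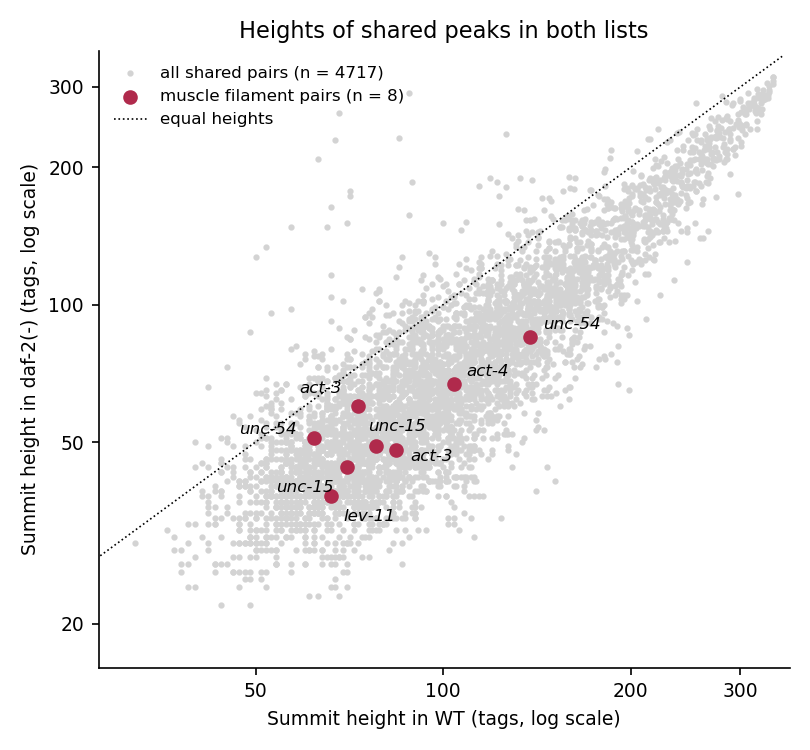
Summit height in daf-2(-) (y axis, tags, log scale) against summit height in WT (x axis, tags, log scale) for 4717 shared peak pairs (grey) and the 8 pairs at muscle filament genes (red, named); the dotted line marks equal heights. All 8 red points lie below the line, within the grey cloud, of which 93.4% lies below it.

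Genes whose products work with the filaments were read from 5 lists of 61 genes in all. A peak was assigned to 24 of 61 in WT (39.3%) and 27 of 61 in daf-2(-) (44.3%), beside 15.0% and 18.0% of protein-coding genes. The 24 of WT all had a daf-2(-) peak as well, as did 2598 of the 2995 protein-coding genes with a WT peak. A peak in daf-2(-) only was found for 5.01% of all protein-coding genes. The 3 of the 61 with this pattern were deb-1 (vinculin), hum-2 (an unconventional myosin) and pha-4 (a pharyngeal FOXA factor), with heights of 39, 42 and 37, named after their values were seen. Each of the 3 was lower than the myo-3 peak of 117.

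Of 16 thin filament regulators, 5 had a peak in both strains. The tallest was at unc-60, which encodes ADF/cofilin proteins that turn over actin filaments, with heights of 212 in WT and 163 in daf-2(-). The tropomodulin gene unc-94 (134 and 83), the troponin C gene pat-10 (117 and 71) and the troponin I gene tni-1 (88 and 52) followed. Of 12 genes for myosin light chains, thick filament assembly and giant kinases, 5 had peaks in both. These included unc-89, the obscurin homologue of the M-line, with heights of 99 and 73 at one of its shared sites and 93 and 80 at the other, unc-98, an M-line zinc finger protein (65 and 60), the essential light chain gene mlc-3 (82 and 54) and unc-82, a kinase needed for thick filament organisation (49 and 37).

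The dense body and M-line genes, whose products anchor the filaments to the cell membrane, had the most members with a peak, 8 of 16 in WT and 9 of 16 in daf-2(-). The integrin-linked kinase gene pat-4 had heights of 155 and 153, the kindlin gene unc-112 had 213 and 133, the parvin gene pat-6 had 136 and 92 and the LIM domain gene lim-9 had 137 and 82. Of 10 nonmuscle actin and myosin genes, 3 had peaks in both, namely hum-8 (147 and 79), the intestinal actin gene act-5 (147 and 65) and hum-4 (72 and 42). A gene for actin outside muscle was therefore also listed.

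Of 7 muscle transcription factor genes, 3 had peaks in both strains. The MyoD homologue hlh-1 had heights of 115 and 56 and the MEF2 homologue mef-2 had 100 and 80. The T-box gene tbx-2, needed for pharyngeal muscle, had 73 in WT and 159 in daf-2(-), but these tallest peaks lay at different places, and the daf-2(-) one overlapped a WT peak assigned to 21ur-15343. No expression of any of these genes was measured in these libraries.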

How the data were processed

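Single-end reads had been trimmed by the authors with Cutadapt, aligned with Bowtie 0.12.7 to WS230 (unique alignments only), and called as peaks with MACS 1.4.2 for each ChIP library against its input, on pooled chromatin. CASAVA 1.8.2 is also named in the submitters' processing notes. Peaks had been assigned to the closest TSS with PeakAnalyzer, and the strain of each list is given by its deposited name. The deposited lists give the count of tags inside each peak, and the authors' summit height is the pileup signal of tags, not scaled for depth. Fold enrichment, as deposited, is the ratio of height to local background. The FDR was deposited as a percent. The daf-2(-) list also holds a deposited MACS score, minus 10 times the log10 of a p-value, which was not used. A table of tag density has 1 value column that names no strain, and it was not used.

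Rows were selected by symbol, and overlap of 1 bp or more with a peak of the other list counted as shared, paired by nearest summit. A percentile is the rank of a value within its own list. Names, biotypes and gene order came from a RefSeq gene table of WBcel235, which matched 98.8% of the WT peaks and 98.7% of those of daf-2(-) by symbol or sequence name, without its coordinates. The tropomodulin gene tmd-1 was looked up as unc-94. All members were named, and of each other list at most the 4 tallest by daf-2(-) height among genes with a peak in both lists. Members and lists were chosen with earlier results of these data known. With 1 ChIP library per strain no p-value was computed, and intervals (95%) cover counting error only. Overlap, pairing and intervals were tested on simulated data. Alternatives were other rules of assignment, fold enrichment, FDR, distance, overlap and strength, given in the closing section. No sequence is printed, since no genome of this build was used here. The work was done in Python 3.11.15 with scipy 1.17.1, numpy 2.4.6, pandas 2.3.3 and, for figures, matplotlib 3.10.9.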

Additional observations from a re-analysis of the deposited data

How the results depend on the processing

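With peaks of fold enrichment 10 or more only, 2 members in place of 5 had a WT peak and 3 in place of 6 a daf-2(-) peak, and among the 61 other genes 14 in place of 24 and 10 in place of 27. The share of all protein-coding genes was then 9.15% in place of 15.0% in WT and 6.42% in place of 18.0% in daf-2(-). Counting peaks assigned to any of 3 genes on either side, an alternative chosen after the data were seen, gave 9 members in both lists. The share of all genes with a peak under this wider rule was not computed, so the count has no background. Peaks at or next to a member whatever their symbol gave 7 and 8, again with no share of all genes computed. Peaks overlapping a member model, also chosen after the data were seen, gave 6 and 6. Models were taken from the peak rows, so only members with a peak in a list had one. That count could therefore not exceed 6, and it says nothing of myo-1, myo-2, act-1 or act-2. An FDR of 1% or less and peaks centred within 2.5 kb before or 300 bp after the TSS left 5 and 6. Dividing by the median ratio of all shared pairs moved the median log2 height ratio from −0.67 to −0.14, and turned the unc-54 promoter and inner act-3 sites to 0.25 each. Tags per peak gave −1.50 at act-4, where the daf-2(-) peak was divided. Over all RefSeq genes the background was 9.79% in WT and 11.8% in daf-2(-). Sharing stayed at 7 and 8 with an overlap of 50% of the shorter peak or summits within 100 bp. No paired analysis was possible because the lists carry no replicate number, with 1 ChIP library for each strain. Depth limits what can be said of absent peaks: low sites may have missed the authors' threshold.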

Other observations

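Downstream of act-3 both strains shared sites assigned to the piRNA gene 21ur-13032 (heights 95 in WT and 89 in daf-2(-)) and to T04C12.8 (126 and 85). Upstream of the act-4 sites, the M03F4.4 peak had 554 tags and a height of 157 in WT, and 356 tags and a height of 133 in daf-2(-). The summits of this pair were 230 bp apart, further than at any of the member pairs.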
